A study of Canis lupus familiaris with 26 samples.

Results

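KLF4 and RUNX1 are transcription factor genes that were found by symbol among the 18466 genes measured in stroma from canine simple mammary adenoma, a benign tumour of the gland's epithelium. Both had been picked as hub genes, those most connected within a module of co-expressed genes, in a network built on these samples together with carcinoma samples that are not analysed here. KLF4 belonged to a module that was lower in tumour stroma and RUNX1 to one that was higher. Their difference between tumour stroma and normal stroma is therefore given as a description, without a test. KLF4 has the identifier ENSCAFG00000002797 and RUNX1 has ENSCAFG00000009596.

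The tissue came from 13 female dogs of different breeds whose tumours arose spontaneously and were removed by surgery, fixed in formalin and embedded in paraffin. Laser-capture microdissection gave adenoma-associated stroma (AAS, named cancer-associated stroma in the labels) and normal stroma, taken next to unaltered glands on the same slides, as 1 pair per dog. The labels give no treatment. The 12 pairs compared came from dogs of 6 to 13 years, with blocks stored for 4 to 29 months. Pair 14 was kept apart, since the study did not use it. Its normal stroma library held 83727 counts.

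KLF4 is a zinc-finger protein of the Krüppel-like family, which binds GC-rich and CACCC elements in promoters. It is known for its part in the differentiation of epithelial barriers, in the resting state of endothelium and in the reprogramming of cells to pluripotency, and its transcript responds quickly to serum and stress. RUNX1 binds DNA through its Runt domain together with its partner CBFB. It is best known for the formation of blood cells and is also active in mammary epithelium and in mesenchymal cells. Captured stroma holds fibroblasts, vessels and leukocytes at once, so that fewer cells of a type and less RNA per cell cannot be told apart.

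Total estimated counts ran from 759119 to 1602797 in normal stroma, with a median of 969706.5, and from 419770 to 1614120 in AAS, with a median of 1060710. The number of genes with at least 10 counts ran from 3341 to 7470 in normal stroma and from 1220 to 7744 in AAS. In the AAS library of pair 7 a single gene took 84.9% of the counts, and in the normal stroma libraries of pairs 4 and 7 it took 45.3% and 42.3%. Levels are given as normalized CPM, a count scaled to the size of its library after TMM normalization (trimmed mean of M-values), and log2 levels carry a prior count of 2. Nothing in the labels splits the samples by sequencing batch.

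KLF4 was lower in AAS than in normal stroma of the same dog in 12 of 12 pairs, on average about 5.22-fold. In normal stroma its normalized CPM had a lowest value of 19.9 (pair 4), a median of 47.4 and a highest value of 106.6 (pair 8). In AAS the lowest was 1.54 (pair 3), the median 10.8 and the highest 20.9 (pair 9). The 2 groups met only at their edges, and 11 of 12 AAS samples lay below every normal stroma sample. Normal stroma averaged 55.7 ± 27.7 and AAS 10.7 ± 5.80 normalized CPM (SD, n = 12 each), with a log2 fold change of -2.38 (standard error 0.40), or -2.42 (standard error 0.44) with the dog as a block. Of the 7763 tested genes, 0.708% were lower in all 12 pairs, and since KLF4 was chosen on this contrast nothing is read from that share.

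**Figure D1:**
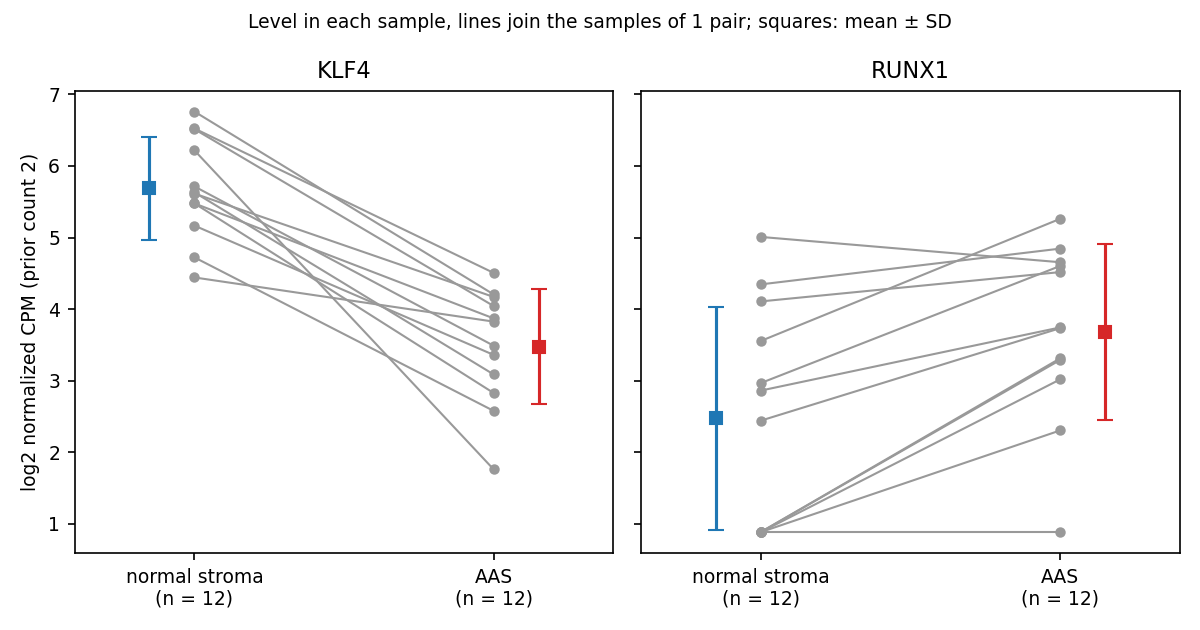
Log2 normalized CPM (prior count 2) of KLF4 and RUNX1 in normal stroma and AAS, with grey lines joining the samples of 1 pair and squares for the mean ± SD of 12 samples. Every KLF4 line falls, from a mean of 5.69 to 3.48, whereas 10 of 12 RUNX1 lines rise and the groups overlap over most of their range.

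The counts behind these levels were moderate in normal stroma and low in AAS. All 12 normal stroma samples held at least 10 counts of KLF4, between 10 and 140 with a median of 56. In AAS the counts ran from 2 to 42 with a median of 9, and 4 samples (pairs 3, 7, 10 and 15) held 3 counts or fewer. Counting error alone did not account for the spread within a group. The variance of the KLF4 counts was 14.4 times that of counting error in normal stroma and 3.74 times in AAS. On the log2 scale the SD between samples was 0.72 in normal stroma and 0.80 in AAS.

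Within the pairs the KLF4 difference, AAS minus normal stroma in log2 normalized CPM, averaged -2.21 ± 0.92 (SD, n = 12). It was largest in pair 3 (-4.46), where 67 counts in normal stroma stood against 2 in AAS. It was smallest in pair 4 (-0.62), in which 10 counts in normal stroma stood against 14 in AAS. The difference in pair 4 is below 0 only after scaling for library composition. The other 10 pairs lay between -2.65 and -1.45.

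RUNX1 was sparsely counted in both tissues and stood higher in AAS in 10 of 12 pairs. Its normalized CPM in normal stroma had a lowest value of 0, a median of 4.50 and a highest value of 30.3 (pair 9). In AAS the lowest was also 0 (pair 15), the median 11.5 and the highest 36.5 (pair 8). The groups overlapped over most of their range, and 1 AAS sample lay above every normal stroma sample. Normal stroma averaged 7.42 ± 9.60 and AAS 14.9 ± 11.0 normalized CPM (SD, n = 12 each). The log2 fold change was 0.99 (standard error 0.74), which is 1.99-fold. With the dog as a block it was 1.72 (standard error 0.76), which is 3.29-fold, so that its size depended on the pairing. Of the tested genes, 2.67% stood higher in at least 10 of 12 pairs, from which again nothing is read.

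Low counts limited the RUNX1 values. It had 0 counts in 5 normal stroma samples (pairs 4, 7, 10, 12 and 15) and in the AAS sample of pair 15. At the depth of these libraries a count of 0 allows up to 3 counts, which is between 2.54 and 5.97 normalized CPM in the 5 normal stroma samples and 5.25 in the AAS sample. Counting error is all that these limits cover. Among the pairs that stood higher, 3 rested on 3 AAS counts or fewer against 0, namely pair 7 with 1, pair 10 with 2 and pair 12 with 3. The highest paired difference, 2.43 in log2 normalized CPM, came from the single count of pair 7. The pairs with the most RUNX1 counts were pair 9, with 36 against 47 counts (-0.35), and pair 13, with 29 against 40 (0.50). The variance of the counts was 12.0 times that of counting error in normal stroma and 6.37 times in AAS.

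**Figure D2:**
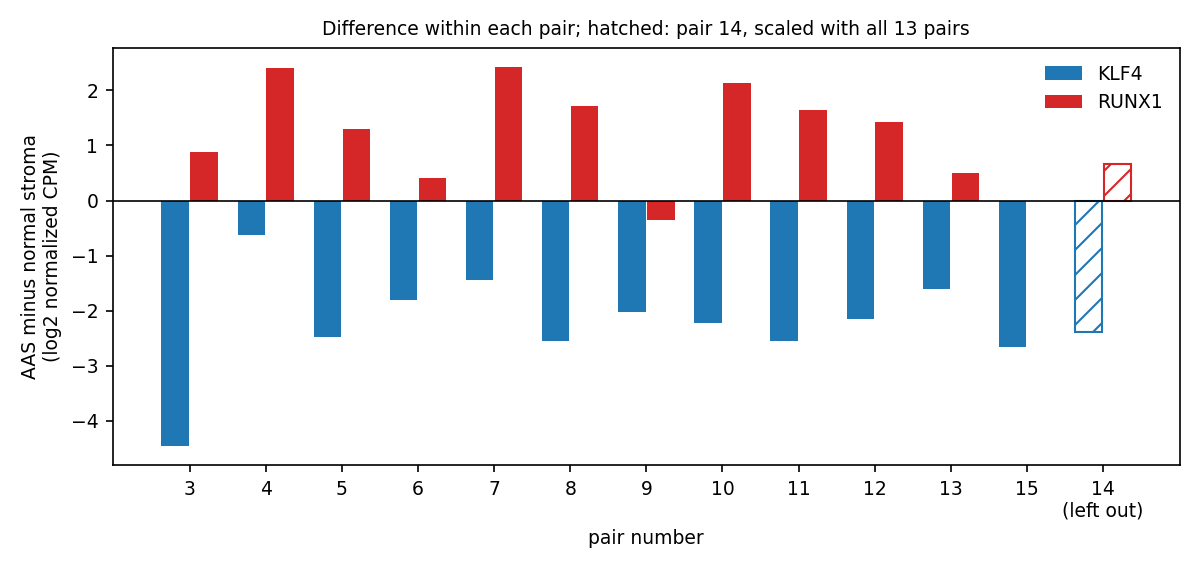
Difference between AAS and normal stroma within each pair, in log2 normalized CPM, for KLF4 (blue) and RUNX1 (red), with pair 14 hatched and scaled over all 13 pairs. KLF4 is below 0 in every pair, RUNX1 is below 0 in pair 9 only, and RUNX1 in pair 15 has no bar because both samples held 0 counts.

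Pair 14, which took no part in the contrast above, gave values of its own. Its normal stroma held 13 counts of KLF4, or 155.3 CPM of the library total (exact 95% binomial interval 82.7 to 265.5). Its AAS held 15 counts in a deeper library of 824086 counts, or 18.2 CPM (10.2 to 30.0), so that KLF4 was lower in AAS here too and the intervals did not meet. RUNX1 had 3 counts in normal stroma, or 35.8 CPM (7.39 to 104.7), and 33 in AAS, or 40.04 CPM (27.6 to 56.2). No RUNX1 difference was detectable in this pair at that depth. The intervals cover counting error in 2 libraries only, and a single pair gives no replicate check.

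The RUNX1 level moved with the number of genes detected in a library. Over the 12 AAS samples the log2 level of RUNX1 correlated with the number of genes at 10 or more counts with Pearson's r = 0.64 (two-sided permutation test, p = 0.0245, adjusted p = 0.0710 over 4 relations) and Spearman's rho = 0.74 (permutation p = 0.00824, adjusted p = 0.0330). In normal stroma r was 0.62 (permutation p = 0.0355, adjusted p = 0.0710) and rho 0.62 (permutation p = 0.0361, adjusted p = 0.0723). Without the 2 samples farthest from the median number of genes, r was 0.87 in AAS and 0.64 in normal stroma. KLF4 gave r = 0.43 in normal stroma (permutation p = 0.163, rho = 0.46 with permutation p = 0.134) and r = 0.16 in AAS (permutation p = 0.630, rho = 0.45 with permutation p = 0.140). Without the same samples these r were 0.36 and 0.62. AAS libraries had a median of 5849 such genes and normal stroma libraries 5190, and the part of this in the RUNX1 difference was not tested.

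No relation of either gene to the age of the block or of the dog passed the test. Over 12 relations (each gene and each age, within normal stroma, within AAS and for the pair differences) Pearson's r ran from -0.23 to 0.48 and Spearman's rho from -0.21 to 0.51. The lowest permutation p were 0.119 and 0.0923, with lowest adjusted p of 0.979 and 0.932. Without the 2 samples farthest from the median age, r ran from -0.49 (KLF4 in normal stroma with block age, -0.17 over all 12) to 0.36. With 12 samples, moderate relations would not be detectable.

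Over all tested genes edgeR called 0.824% higher and 1.15% lower in AAS, 1.97% in all, or 0.734%, 1.62% and 2.36% with the dog as a block. Besides KLF4, for which no test is given, no Krüppel-like factor or related SP factor that was tested was called. Of 26 such genes besides KLF4, 8 had an identifier and 7 were tested, while KLF15 was too low with a mean of 0.417 counts. None of the 7 was called by edgeR's quasi-likelihood test, which called 1.45% of tested genes with a symbol higher and 2.25% lower. DESeq2, which called 5.72% of them in either direction, called none of the 7 either. No call among 7 genes is thus near the background. Of the 7, 1 had an unadjusted p below 0.05. Their median log2 fold change was -0.87, against 0.0086 over all tested genes. For 3 of the 7 the symbol was known only from a table of the study ordered by significance of this contrast, and the median of the other 4 was -0.49. KLF6, an early-response factor, had a log2 fold change of -1.18 (standard error 0.75), and KLF3, a repressor, one of -1.06 (standard error 0.54). KLF9 (-0.87), KLF11 (-0.88) and KLF10 (-0.10) had log2 fold changes below 0 too, and none of the 3 passed. SP2 (0.56) and SP4 (2.25, standard error 1.02) stood above 0, and SP4 was the gene with the unadjusted p of 0.0326 (edgeR adjusted p = 0.411). The normalized CPM of KLF3 averaged 40.5 ± 29.7 for normal stroma against 18.6 ± 14.0 for AAS (SD, n = 12 per group). KLF3 stood lower in AAS in 10 of 12 pairs and higher in 1 (edgeR quasi-likelihood test, unadjusted p = 0.0555, adjusted p = 0.526).

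For relatives and partners of RUNX1 15 symbols were listed, with TLE5 also under its older name AES. Of these 6 had an identifier, and all 6 were tested. CBFB, the partner with which RUNX1 binds DNA, was not among them. None was called by edgeR, which called 3.7% of tested genes with a symbol, or by DESeq2, which called 5.72%, so that no call among 6 genes is near the background. CBFA2T3 alone had an unadjusted p below 0.05 (log2 fold change -1.08, standard error 0.51, edgeR adjusted p = 0.451). RUNX2, the factor of bone formation, averaged 66.9 ± 93.3 normalized CPM for normal stroma against 75.7 ± 61.3 for AAS, with a log2 fold change of 0.21 (standard error 0.47). RUNX3, known from T cells, had 6.15 ± 7.59 and 18.4 ± 21.8 normalized CPM, with a log2 fold change of 1.54 (standard error 0.77, edgeR adjusted p = 0.509). Of the Groucho-type co-repressors, TLE4 had a log2 fold change of 1.26 (standard error 0.72) and TLE1 one of -0.84 (standard error 0.79). HIPK2, a kinase that acts on RUNX proteins, had one of 0.68 (standard error 0.39) and stood higher in AAS in 10 of 12 pairs.

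**Figure D3:**
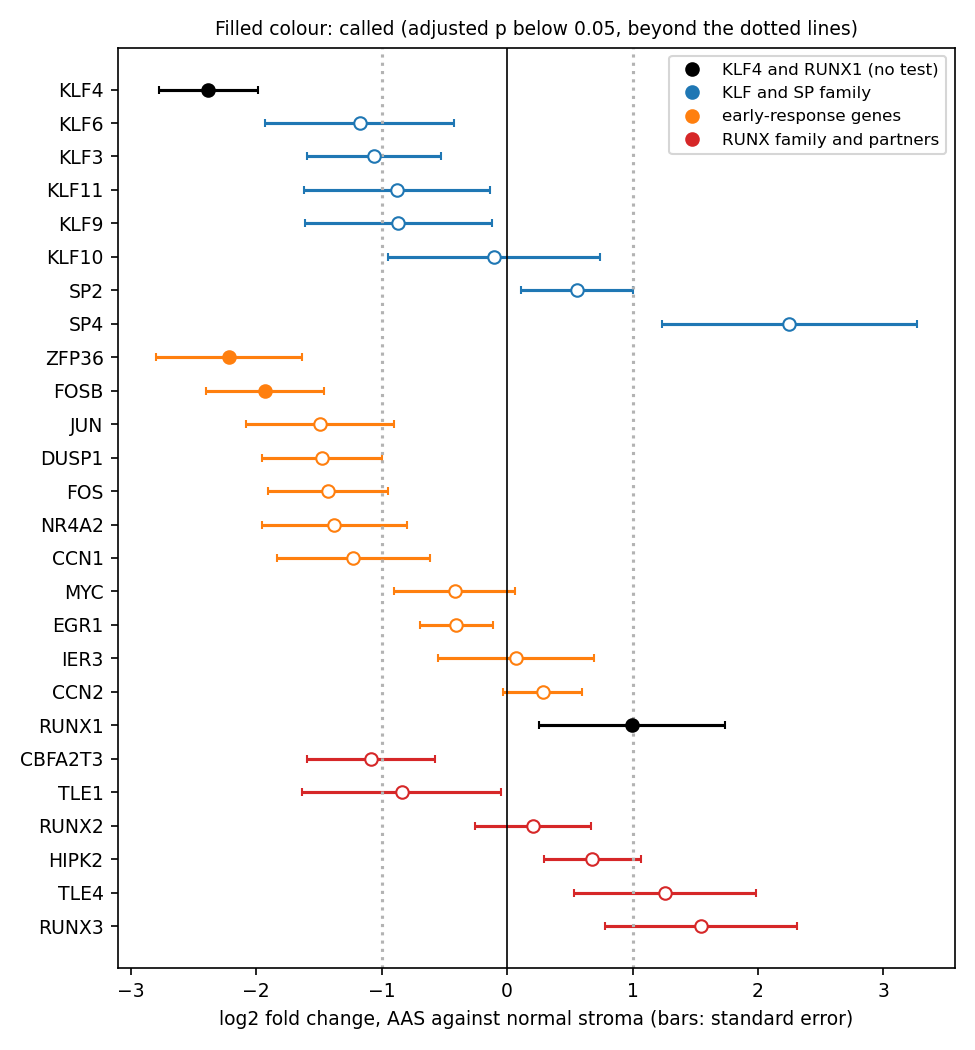
Log2 fold change between AAS and normal stroma with its standard error for KLF4 and RUNX1 (black, with no test given), the KLF and SP family (blue), early-response genes (orange) and the RUNX family with its partners (red). Filled colour marks genes past the thresholds, which are FOSB and ZFP36. KLF4 at -2.38 lies lowest as drawn, but it was chosen on this contrast, so nothing is read from its place. With the dog as a block ZFP36 lay lower, at -2.91 against -2.42 for KLF4.

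FOSB and ZFP36 were lower in AAS among the early-response genes, whose transcripts like that of KLF4 rise quickly after a stimulus. The list held 29 symbols, with CCN1 and CCN2 also under older names. Of these 12 had an identifier and were tested, 2 were called lower and none higher. The log2 fold change was below 0 in 10 of the 12. Of all 12 tested genes, 9 were named only by the table ordered by significance. By unadjusted p below 0.05, 6 were lower. The list's median was -1.30, and 3.7% of tested genes with a symbol were called in either direction. FOSB, a subunit of the AP-1 factor, had a lowest value of 42.8, a median of 124.6 and a highest value of 514 normalized CPM in normal stroma. In AAS these values were 0, 29.2 and 98.1, so that the groups overlapped in part. Its log2 fold change was -1.93 (standard error 0.47, edgeR adjusted p = 0.0152), and it was lower in 11 of 12 pairs. ZFP36, which promotes the decay of AU-rich mRNAs, ran from 3.98 over a median of 67.6 to 177.6 normalized CPM in normal stroma. In AAS it ran from 0 over 5.42 to 84.9, and 3 AAS samples held 0 counts. Its log2 fold change was -2.22 (standard error 0.58, edgeR adjusted p = 0.0283), again with 11 of 12 pairs lower.

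With the dog as a block 4 early-response genes were called lower and none higher, where 3.74% of tested genes with a symbol were called lower, 1.37% higher and 5.11% either way. FOS (log2 fold change -2.21, edgeR adjusted p = 0.00208) and the phosphatase gene DUSP1 (-1.98, edgeR adjusted p = 0.0106) joined FOSB and ZFP36. Without the block FOS had a log2 fold change of -1.43 (edgeR adjusted p = 0.142) and DUSP1 one of -1.48 (edgeR adjusted p = 0.117). Single dogs mattered for ZFP36, which was called in 5 of the 12 fits that left out 1 pair and lost its call without pair 5, 6, 7, 8, 11, 13 or 15 (edgeR adjusted p from 0.00169 to 0.102). FOSB was called in all 12 of these fits and lost its call only when pair 14 was added without the block (edgeR adjusted p = 0.120). With pair 14 and the dog as a block FOSB was called lower (log2 fold change -2.08, edgeR adjusted p = 0.00116). The symbols themselves were not an even sample. For 9 of the 12 genes the symbol was known only from a table ordered by significance of this same contrast. The other 3 were EGR1 (log2 fold change -0.40), IER3 (0.069) and MYC (-0.42), and none was called, where 1.85% of all genes with symbols from the table ordered by identifier were.

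**Figure D4:**
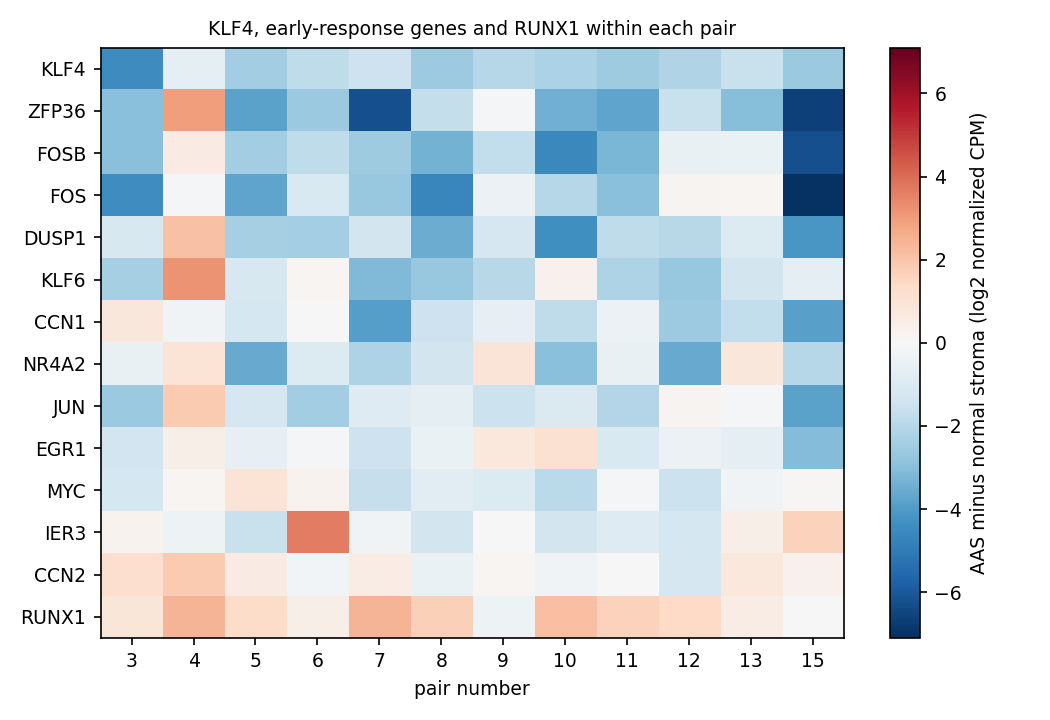
Difference between AAS and normal stroma in log2 normalized CPM within each of 12 pairs (columns), for KLF4, 12 early-response genes and RUNX1 (rows), with blue for lower and red for higher in AAS. Pair 4, which had the smallest KLF4 fall (-0.62), also has ZFP36 (2.95), KLF6 (3.19) and DUSP1 (2.06) higher in AAS, whereas in pair 15 FOS is at -7.02 and ZFP36 at -6.61.

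Pair 4 stood apart from most other pairs in some of these genes. ZFP36, DUSP1, KLF6 and JUN were all higher in AAS there, by 2.95, 2.06, 3.19 and 1.87 in log2 normalized CPM. ZFP36 and DUSP1 were higher in AAS in 1 pair only, JUN in 2 and KLF6 in 3. In pair 4 FOSB (0.56), EGR1 (0.42), NR4A2 (0.95), MYC (0.15) and CCN2 (1.87) also stood above 0. FOS (-0.089), CCN1 (-0.23) and IER3 (-0.38) stood below 0 there. The normal stroma library of pair 4 had the lowest number of genes at 10 counts in its group (3341) and the gene with the largest share of counts in that group (45.3%). Without pair 4 the KLF4 log2 fold change was -2.49, and FOSB and ZFP36 were again the early-response genes called. By dog age and block age, pair 4 matches the case for which the paper lists the lowest RNA quality, in normal stroma and in AAS alike. The part of this library and of RNA quality in the pair difference was not tested.

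Of 10 tested genes known from other work to be controlled by these factors or by RUNX2, 1 was called by edgeR, where 3.7% of tested genes with a symbol were. Of 16 genes linked to KLF4, 4 were tested and none was called by edgeR or DESeq2, with ACTA2 alone at an unadjusted p below 0.05. CDKN1A, the cell-cycle inhibitor that KLF4 is known to activate, held 221.6 ± 76.6 normalized CPM in normal stroma and had a log2 fold change of 0.24 (standard error 0.20). The others were CDH1 (0.51), ODC1 (-0.41) and ACTA2 (0.89). Of 17 genes linked to RUNX1, 3 were tested and none was called by either tool, with MYL9 alone at an unadjusted p below 0.05. CSF1R, the receptor for macrophage colony-stimulating factor, had a log2 fold change of -0.85 (standard error 0.52), GFI1 one of 1.19 (standard error 0.68) and MYL9 one of 0.55 (standard error 0.21). Of 9 genes linked to RUNX2, 3 were tested and COL1A2, a chain of type I collagen, was called lower (log2 fold change -1.35, standard error 0.37, edgeR adjusted p = 0.0405, lower in 12 of 12 pairs). COL1A2 lost its call without pair 3, 4, 5, 8, 12 or 15 (edgeR adjusted p up to 0.166), and under a stricter filter on low counts (edgeR's filterByExpr, adjusted p = 0.0531). With the dog as a block COL1A1, the other chain, was called lower as well (log2 fold change -1.23, edgeR adjusted p = 0.0224).

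Among 61 further transcription factors of stroma, 29 were tested and none was called by edgeR (3.7% of tested genes with a symbol were), while DESeq2 called 2, OSR2 and ETS1 (5.72% were), and 6 had an unadjusted p below 0.05. The list's median log2 fold change was -0.12. OSR2, a factor of mesenchymal development, was called lower with the dog as a block (log2 fold change -3.72, standard error 0.95, edgeR adjusted p = 0.0200). It held 0 counts in 6 AAS samples and in none of the normal stroma samples. Of the other hub genes of the module of KLF4, CLEC3B, GALNT15 and SCARA5 had log2 fold changes of -3.53, -2.59 and -2.13, and of those of the module of RUNX1, BGN had one of 2.95. They were chosen on the same samples and add no support.

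The genes whose levels ran most like those of KLF4 over the 24 samples, after the mean of each group was taken off, were taken from 1427 genes with a symbol and a mean of at least 20 counts. They were CDC42EP1 (Pearson's r = 0.71), SSBP3 (0.68), IDNK (0.66), SEC61A1 (0.65) and ITPR3 (0.64). That minimum left out low-count relatives such as SP4, which had r = 0.66. For RUNX1 they were RPL12 (r = 0.81), PLOD1 (0.78), VCP (0.74), IL13RA1 (0.73) and SF3A1 (0.73) among 1428 genes. None of the 10 was called between AAS and normal stroma. Since edgeR called 3.7% of tested genes with a symbol, no call among 10 genes is near the background. IL13RA1 had a log2 fold change of -1.32 and PLOD1 one of 1.20, so that genes with a like pattern within the groups stood on either side of 0 between them. KLF4 and RUNX1 had r = 0.46 with each other within the groups, while their log2 fold changes between the groups had opposite signs. All these samples share libraries and depth between the genes, and the values are descriptions only.

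Markers of the cell types that the capture could hold were known for few genes. Fibroblast markers had identifiers for 7 of 9 genes, and none of the 7 was at 0 throughout a group. Their summed normalized CPM ran from 1325 to 19581 for normal stroma against 484 to 6842 for AAS, and COL1A2, DCN and FBLN1 were called lower, 3 of 7 where 2.25% of tested genes with a symbol were. With the dog as a block COL1A1 joined them. For 4 of the 7 the symbol was known only from the table ordered by significance. The part of these transcripts in the KLF4 difference was not tested. KDR and TEK, the 2 of 10 endothelial markers known, summed to 8.74 at the lowest and 83.5 at the highest for normal stroma, against 0 and 58.2 for AAS, and neither was called. ACTG2, the 1 of 8 smooth muscle markers known, ran from 0 to 54.8 and from 0 to 159.3. SPINK5 and DMKN, 2 of 8 epidermal markers, summed to between 0 and 150.04 and between 1.03 and 73.1. SPINK5 averaged 24.3 ± 35.1 for normal stroma against 2.87 ± 3.86 for AAS and stood lower in 9 pairs (log2 fold change -2.92, edgeR adjusted p = 0.0667), and DESeq2 called it lower, while DMKN had a log2 fold change of 0.79. The part of epidermal cells in the KLF4 difference was not tested. The summed level of 5 of 9 luminal epithelial markers lay between 102.2 and 244.7 and between 87.5 and 284.8.

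For RUNX1 the leukocyte markers are the nearest measure of blood cells. RAC2, the 1 of 7 pan-leukocyte markers known, ran from 0 to 17.8 normalized CPM for normal stroma against 0 to 23.7 for AAS. The 4 of 10 macrophage markers known (CSF1R, CD163, AIF1 and ITGAM) summed to between 360.1 and 808.8 and between 309.7 and 1074, and none was called. IGHM, an immunoglobulin heavy chain gene of B and plasma cells, was called higher (log2 fold change 2.46, edgeR adjusted p = 0.0202), though reads of immunoglobulin genes are hard to assign. KIT, 1 of 5 mast cell markers, ran from 0 to 14.7 and from 0 to 39.8, and PPBP, 1 of 6 platelet markers, from 0 to 38.5 and from 0 to 47.1. LEP, 1 of 7 adipocyte markers, reached 3.98 and 6.72. No T cell or myoepithelial marker had an identifier here, and the part of any leukocyte in the RUNX1 difference was not tested. In the annotation of another dog assembly, UU_Cfam_GSD_1.0, 4 long non-coding RNA genes overlap RUNX1 and none overlaps KLF4. How strand was used in the counting was not given in the sources used here, so that reads of RUNX1 and of these RNAs may not be separable.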

How the data were processed

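The authors quantified reads with kallisto 0.44.0 against Ensembl transcripts of CanFam3.1, summed them per gene with tximport and deposited estimated counts that were not normalized, covering 18466 genes in 26 samples. The values were whole numbers, so that rounding changed none, and no 2 samples were identical. Groups and pair numbers came from the sample labels, and a shared number marks 1 dog.

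The 7763 genes that averaged 5 counts or more in the 24 samples went into edgeR 4.0.16 (R 4.3.3; TMM scaling, quasi-likelihood test), without a pair term since the methods name none. A gene was called when its Benjamini-Hochberg adjusted p was under 0.05 with an absolute log2 fold change over 1. DESeq2 1.42.0 and the pair block were alternatives. Deviations of same-dog samples correlated at 0.081 on average, against -0.0051 for different dogs. On simulated counts for this comparison (7262 genes), 89 of 200 genes with 4-fold changes were recovered with 6 false calls, and 0 calls were made with none changed. With the dog as a block 62 of 200 were recovered with 2 false calls. No effect of the dog was simulated, so that these counts do not bear on the pairing. Permutation tests used 100000 resamples (Python 3.11.15).

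Symbols came from the readable rows of the study's tables, which name 3294 of the identifiers (their other columns, the authors' own comparisons and loadings, were not used). Members and lists were chosen with earlier results of these data known. The genes named are KLF4 and RUNX1, every tested gene of both families, up to 5 called genes of each other list, the 5 genes most like each factor, and the other hub genes with an identifier. Other genes of the lists that are named without a call were chosen after their values were seen. The alternatives were other normalization, filters and samples, as given at the end. Pair 14 (83727 counts in normal stroma) entered alternatives only. A count of 0 allows up to 3 counts, which was 1.49 to 5.97 normalized CPM in normal stroma and 1.49 to 24.2 in AAS. The summed level of the B and plasma cell markers is not reported here.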

Additional observations from a re-analysis of the deposited data

How the results depend on the processing

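The number of samples and the low counts of RUNX1 set the precision here. KLF4 stayed below 0 under every alternative, and leaving out 1 pair each gave log2 fold changes from -2.49 to -2.23. RUNX1 stayed above 0 where it was tested, from 0.85 to 1.39 without 1 pair, but filterByExpr removed it. Its log2 fold change was 1.72 with the replicate block, 1.71 with DESeq2 and the block, and 1.84 as the mean pair difference with a prior count of 0.5. The replicate block, which pairs the samples of 1 dog, raised the calls among the gene lists from 3 lower to 7, and gave 57 higher and 126 lower over all genes.

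Over all genes, 64 were called higher and 89 lower in AAS. DESeq2 called 103 higher, and with the block 143 higher and 189 lower. No filter on low counts gave 1258 and 432, and filterByExpr 28 and 54. Among the lists, DESeq2 called 1 gene higher (ETS1), DESeq2 with the block 8 lower, no filter 1 higher and 8 lower, and all 13 pairs with the block 5 lower. With symbols of the table ordered by identifier only, a setting chosen after seeing the data like the relation to genes detected, 1 was lower (COL1A2). RLE normalization, all 13 pairs, leaving out the 10 most counted genes and leaving out pair 7 kept the counts within 1.5 times. The cause of these shifts was not tested. No relation to age passed under any alternative, with adjusted p of at least 0.882.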
